A study of Mus musculus with 18 samples.

Results

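The 83 genes described here carry the symbols of proteins of the cytosolic ribosome. They are the rows of the deposited count table, 21859 in all, whose symbol begins with Rpl or Rps and a digit or is Rplp0, Rplp1, Rplp2 or Rpsa, without S6 kinase genes, the binding protein gene Rps19bp1 and pseudogenes, and with a mean of at least 10 counts over the 18 libraries. Of the 83, 49 have the symbol prefix of the large subunit and 34 that of the small subunit. The prefix alone set membership and subunit, so relatives such as Rps23rg1 and Rpl7l1 are counted without evidence that they are ribosomal proteins. All 83 were among the 15944 genes that passed the low-count filter and were tested. 3 further rows fell under the minimum, Rpl10l with a mean of 0.278 counts, Rpl39l with 3.83 and Rpl36al with 7.67. The members just above it were Rpl24 with a mean of 25 counts, Rps27rt with 64 and Rps10 with 77.7.

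The libraries were made from polyA RNA of mouse retinal pigment epithelium (RPE), a pigmented cell sheet that serves the photoreceptors. The Young group (7 libraries) and the Old group (4 libraries) carry no treatment in the labels. The Old control group (3 libraries) is RPE of aged mice that received AAV2-tTA, an adeno-associated virus carrying the tetracycline-controlled transactivator, and the Old OSK group (4 libraries) is RPE of aged mice that received AAV2-tTA;TRE-OSK, which adds Oct4 (gene Pou5f1), Sox2 and Klf4 under the promoter that the transactivator drives. AAV2-tTA is therefore common to both treated groups, and each of these shares aged RPE with the Old group. Ages, strain, vector doses and times are not given in the labels, nor is the number of animals behind a library.

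A ribosome joins a large and a small subunit, each a scaffold of ribosomal RNA covered by proteins that are mostly present in a single copy. Cells keep these proteins in step with each other, and most of their mRNAs begin with a C and a run of pyrimidines, the 5′ terminal oligopyrimidine tract, through which the kinase complex mTORC1 and the RNA-binding protein Larp1 control their translation. The RPE is a non-dividing tissue with a heavy load of secretion, pigment upkeep and digestion of photoreceptor tips, all of which draw on protein synthesis.

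Total counts ranged from 18104828 to 32348136 a library. RPE markers were abundant everywhere, with the 21 listed genes summing to 20430 to 73470 CPM (counts scaled to depth, per 1e6, after TMM scaling), and no listed marker was at 0 in all libraries of a group. Rod photoreceptor markers (14 genes) summed to 479.3 to 21330 CPM, so rod RNA was present too. Of the delivered genes, Pou5f1 and Sox2 followed the labels: Pou5f1 lay at 50.2 to 97.4 CPM in the 4 Old OSK libraries and at 3.75 CPM or less in the other 14, and Sox2 at 70 to 115.4 against 15.9 CPM or less. Klf4, which has an endogenous transcript too, did not follow them throughout. It lay at 155 to 431.6 CPM in the Old OSK libraries and at 216.2 CPM in the library labelled Old replicate 4, inside the OSK range, where the other Old libraries had 11.7, 69.6 and 44 CPM. In that library Pou5f1 was 0.359 CPM and Sox2 3.796 CPM, so its label is met by these genes and not by Klf4. The edgeR counts of called members and the median over the members are also given without it. Other results that include it, such as those by DESeq2, by subunit and on overlap, are given with it only. 6 libraries have the letter M in the library name (Young replicates 5 to 7, Old control replicates 2 and 3, Old OSK replicate 4). Counts on 4 Y-linked genes summed to 4040 to 5493 in them and to at most 93 in the other 12, and no Old library is among them.

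The ribosomal protein genes took a larger part of the counts in old than in young RPE and the largest part in the OSK group. In the Young libraries the 83 genes together held 1.03% to 1.31% of all counts, with a median of 1.05% (mean 1.14% ± 0.132, SD, n = 7). The Old libraries had 1.32%, 1.68%, 1.56% and 2.96% (mean 1.88% ± 0.736, SD, n = 4). Every Old library lay above every Young one in this share, although Old replicate 1 was only just above the highest Young value, and Old replicate 4 lay far above the rest of its group. After TMM scaling the groups overlapped: the members summed to 12907 CPM in Old replicate 1 and to 13508 CPM in Young replicate 1. The Old control libraries had 1.33%, 2.14% and 1.47%. The Old OSK libraries had 3.41%, 3.08%, 2.75% and 2.13%. OSK replicate 4 and Old control replicate 2 had almost the same share, so these groups touched while the other 3 OSK libraries stood above all 3 controls.

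**Figure D1:**
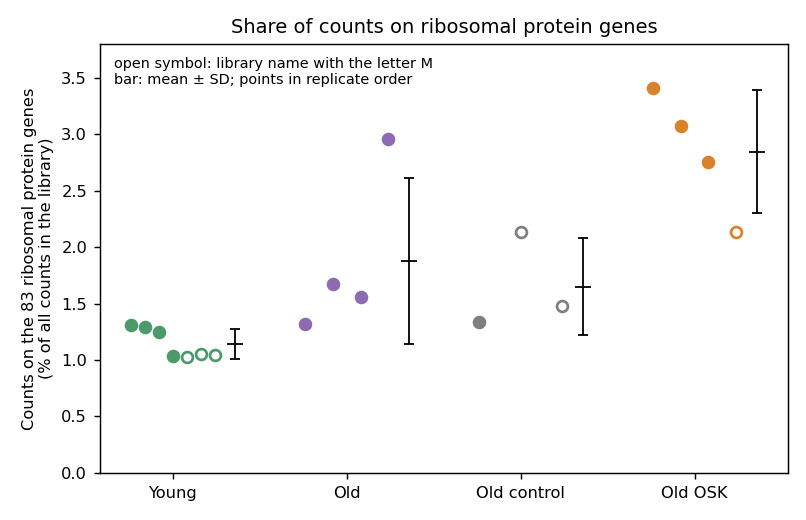
Percent of all counts that fell on the 83 ribosomal protein genes in each library, by group, with the mean and SD of the group beside the points and open symbols for library names with the letter M. The 7 Young libraries sit between 1.03% and 1.31%, Old replicate 4 stands at 2.96%, and the 4 Old OSK libraries run from 2.13% to 3.41%.

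The members moved as a block within groups as well as between them. Old replicate 4 was the highest of the 4 Old libraries in 79 of the 83 members and Old replicate 1 the lowest in 71. Old OSK replicate 1 was the highest of all 18 libraries in 78 members, and OSK replicate 4 was the lowest of its group in 74. Old control replicate 2 was the highest of the controls in 64. The mean log2 CPM over the members varied between libraries of a group with an SD of 0.281, close to the median SD of a single member, 0.324. The steadiest member was Rpl7l1 with an SD of 0.172 and the most variable Rpl3l with 0.989.

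The libraries high in ribosomal protein genes were among those low in RPE markers. The RPE marker sum was 49660 to 73470 CPM in Young, 54090, 51790 and 52160 CPM in Old replicates 1 to 3 and 32500 CPM in Old replicate 4. It was 67390, 25550 and 59370 CPM in the 3 controls and 34710, 20430, 27740 and 32490 CPM in the 4 OSK libraries. Rod marker sums were highest in Old control replicate 2 (21330 CPM) and OSK replicate 4 (17800 CPM), the libraries that met in the middle of the treated groups. The 12 immune cell markers summed to 502.6 to 692.1 CPM in Young and 764.5 to 1276 CPM in Old. The part of these markers in the results below was not tested, and in bulk tissue fewer cells of a type and less RNA per cell cannot be told apart.

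The starts of some members are shown because the results below turn on these genes: those named there for the lowest p among members higher with age or with OSK, and Rps6. Each sequence runs from 20 bases before the annotated start to 20 bases from it on (RefSeq, GRCm38.p6), with its longest unbroken run of pyrimidines in capitals. Where a gene has several annotated starts, the one with the longest such run in this window was chosen.
Rpl28, chr7:4792945-4792984, plus strand: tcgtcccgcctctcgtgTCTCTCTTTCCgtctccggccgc
Rpl35, chr2:39005112-39005151, minus strand: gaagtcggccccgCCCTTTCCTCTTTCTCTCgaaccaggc
Rpl38, chr11:114668560-114668599, plus strand: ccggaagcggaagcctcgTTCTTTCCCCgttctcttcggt
Rps27, chr3:90213629-90213668, minus strand: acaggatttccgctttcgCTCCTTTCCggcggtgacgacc
Rps6, chr4:86857348-86857387, minus strand: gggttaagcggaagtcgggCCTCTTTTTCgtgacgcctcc
Rplp2, chr7:141447631-141447670, plus strand: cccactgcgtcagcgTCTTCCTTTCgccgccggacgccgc
Rps28, chr17:33824543-33824582, minus strand: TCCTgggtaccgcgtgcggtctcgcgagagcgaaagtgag
Rpl23, chr11:97782420-97782459, minus strand: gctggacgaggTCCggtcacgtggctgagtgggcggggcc
Rps15, chr10:80292411-80292450, plus strand: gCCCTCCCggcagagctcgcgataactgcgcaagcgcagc
Rps19, chr7:24884893-24884932, plus strand: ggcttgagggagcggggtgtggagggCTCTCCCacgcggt
Rpl39, chrX:37085203-37085242, minus strand: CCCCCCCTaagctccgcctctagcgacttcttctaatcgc

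In the first 6 the long run lies across the annotated start, in Rps15, Rps19 and Rpl39 it lies away from the start, and in Rps28 and Rpl23 no run over 4 bases is found in the window. Among the 63 members matched by symbol in the promoter table, 31 (49.2%) had a run of at least 8 pyrimidines in this window, against 19.1% of the 12446 other tested genes with an entry. An annotated start base C followed by at least 4 pyrimidines was found in 14 (22.2%) of the 63 and in 2.84% of the others, and in 2.51% of all 32851 promoters. In these shares and the next, a gene was counted if any of its annotated starts had the feature, whereas the 32851 promoters were counted singly. In the whole 300-base promoter window, searched on both strands, CCGGAAG was found in 39.7% of the 63 and 16.8% of the other genes, AAGATGG in 15.9% and 7.48%, and TATAAA in 11.1% and 10.1%. The start base is the annotated one, not measured here. The log2 fold changes below did not separate by this feature: the members with the long run (n = 31) had a median of 0.60 with age and 0.71 with OSK, and those without (n = 32) 0.63 and 0.73.

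With age, ribosomal protein genes of both subunits rose. In Old against Young, 43 of the 83 members were higher and 0 were lower at an adjusted p under 0.05 (edgeR quasi-likelihood test, Benjamini-Hochberg adjustment over all tested genes). Of all tested genes 5.4% were higher and 4.16% were lower by the same rule. At an unadjusted p under 0.05, 76 members were higher and 0 lower, against 15.6% and 13.4% of all genes, and DESeq2 called 60 members and 8.71% of its tested genes higher. The median log2 fold change of the members was 0.625, a 1.54-fold higher level, with an interquartile range of 0.53 to 0.75, while the median over all tested genes was −0.004. The large subunit had 24 of 49 members called and a median of 0.59, and the small subunit 19 of 34 and a median of 0.66.

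Among small-subunit members, Rps15, which lies in the head of the subunit near the decoding site, had the lowest p. Its level was 126 to 154.3 CPM in Young, with a median of 142.8, and 182.3, 204.3, 198.9 and 319.8 CPM in Old, behind which stand 2273 to 10699 counts a library. The groups did not overlap, and Old replicate 4 was again the high one. The log2 fold change was 0.69 ± 0.15 (SE; edgeR adjusted p = 0.01237). Rps19, known from inherited anaemia when mutated, had 60.1 to 89.1 CPM in Young and 85.6, 130.7, 117.7 and 249.4 CPM in Old. Old replicate 1 fell within the Young range, and the log2 fold change was 0.98 ± 0.234 (edgeR adjusted p = 0.01985), the highest of all members.

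Rps28 stood at 26.7 to 46.9 CPM in Young and at 59.3, 56.3, 49.9 and 90.1 CPM in Old, with no overlap. It rose by 0.89 ± 0.205 on the log2 scale (edgeR adjusted p = 0.0161). Rps27, a zinc-binding protein of the small subunit, had 54.2 to 85.3 CPM in Young and 91.6, 99.4, 95.4 and 148.7 CPM in Old, a log2 fold change of 0.69 ± 0.159 (edgeR adjusted p = 0.0165). Rps6, the S6 kinase substrate used as a readout of mTORC1, had 160.7 to 204.1 CPM in Young and 198.6, 247, 227 and 372.4 CPM in Old. Its lowest Old library was below the highest Young one, and its log2 fold change was 0.575 ± 0.15 (edgeR adjusted p = 0.02856). Rpsa, also known as a laminin receptor, and Rps4x, on the X chromosome, had log2 fold changes of 0.76 and 0.63 and were not called (edgeR adjusted p = 0.06097 and 0.09727).

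In the large subunit, Rpl23 had 105.8 to 138.9 CPM in Young and 144.8, 190.2, 162.4 and 308.8 CPM in Old, without overlap, and a log2 fold change of 0.75 ± 0.18 (edgeR adjusted p = 0.01981). Rpl28 had 167.5 to 194.8 CPM in Young and 205.5, 279, 263.8 and 466.2 CPM in Old, also without overlap. Rpl35, which sits at the mouth of the tunnel through which new protein leaves, had 43.3 to 74.8 CPM in Young and 83.6, 103.7, 84.9 and 165.8 CPM in Old. In all 3 genes every Old library lay above the Young range, with replicate 1 the nearest to it and replicate 4 the farthest. Rpl28 rose by 0.75 ± 0.18 and Rpl35 by 0.86 ± 0.21 on the log2 scale (edgeR adjusted p = 0.02035 and 0.02129). Rpl38, known for its effect on Hox mRNA translation in the mouse embryo, rose by 0.69 ± 0.168 (edgeR adjusted p = 0.02177), from 21.6 to 36.2 CPM in Young to 43.3, 43, 38 and 56.5 CPM in Old.

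Rpl39, a small protein that lines the exit tunnel, rose by 0.82 ± 0.214 on the log2 scale (edgeR adjusted p = 0.02886). It had 30.2 to 59.8 CPM in Young and 57.1, 70.3, 65.4 and 117.7 CPM in Old, with Old replicate 1 inside the Young range. Rplp0, the base of the stalk that recruits elongation factors, had 309.9 to 485.6 CPM in Young and 375.1, 601.6, 541 and 1278 CPM in Old. Its log2 fold change of 0.83 ± 0.284 was not called (edgeR adjusted p = 0.06801). Rpl10, which joins the large subunit late in its assembly, had a log2 fold change of 0.57 and was not called (edgeR adjusted p = 0.05116).

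The calls with age turned on single libraries more than the direction did. Without the library labelled Old replicate 4, whose Klf4 level was noted above, 0 of the 83 members were called by edgeR, 40 were higher at an unadjusted p under 0.05, and the median log2 fold change was 0.35, with 80 of 83 positive. That fit called 1.47% of all genes higher, and the 10 members described above as called had log2 fold changes of 0.355 (Rps6) to 0.68 (Rps28) in it, Rplp0 0.37, Rpsa 0.36 and Rps4x 0.25. Without Old replicate 1, the lowest of its group, 70 members and 8.93% of all genes were called higher. The count also fell by over 1.5 times without Old replicate 2 (14) and without Young replicates 1 (26), 4 (14), 5 (12), 6 (11) or 7 (21). In these 6 fits 2.26% to 3.23% of all genes were called higher, so the background fell as well. With the letter M as a covariate, only Rps15 was called (log2 fold change 0.64, edgeR adjusted p = 0.04158), beside 1.98% of all genes called higher, so the members' count was not above the background. In that fit 66 members were higher at an unadjusted p under 0.05 and the median was 0.55. Among libraries without the letter, Young replicates 1 to 4 against the 4 Old libraries, 0 were called, beside 0.694% of all genes called higher. In that fit 60 members were higher at an unadjusted p under 0.05 and the median was 0.57. For the 40, 66 and 60 members at the unadjusted level, the share of all genes in the same fit was not taken.

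Some members separated the groups completely. In 20 members every Old library was above every Young library, against 3.69% of all tested genes, and in 0 members every Old library was below, against 5.61%. Of the 20, 19 were also called, and the exception was Rpl41 (edgeR adjusted p = 0.06664), a very short and basic protein, named here after its values were seen.

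**Figure D2:**
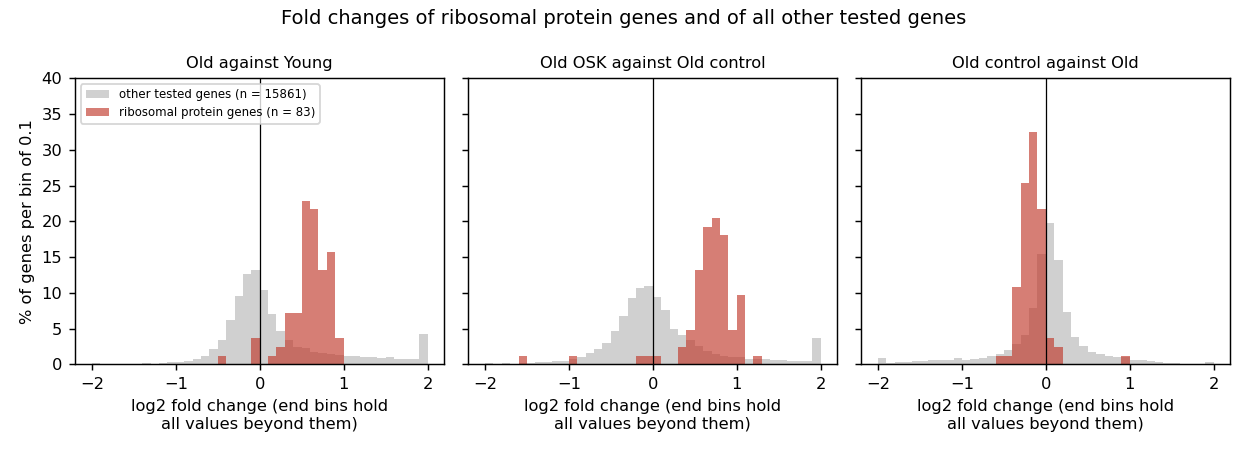
Distribution of log2 fold changes (x axis, bins of 0.1, the end bins holding all values beyond them) as percent of genes (y axis) for the 83 ribosomal protein genes and the 15861 other tested genes in 3 comparisons. The members sit to the right of the other genes with age and with OSK, with medians of 0.625 and 0.72, and slightly to the left in Old control against Old, with a median of −0.17.

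In OSK-treated RPE the levels of most ribosomal protein genes stood above those in the vector control, but none passed the test. In Old OSK against Old control, 0 of the 83 members were called higher and 0 lower by edgeR, beside 0.408% and 0.32% of all tested genes. At an unadjusted p under 0.05, 76 members were higher and 2 were lower (Rps23rg1 and Rpl3l), against 13.3% and 13% of all genes. At an adjusted p under 0.1, 49 were higher, against 4.42%. DESeq2, which used the same group means, called 55 higher, beside 6.93% of its tested genes. The median log2 fold change was 0.72 (1.65-fold), with an interquartile range of 0.60 to 0.835, and over all tested genes it was −0.03. Medians were 0.71 in the large and 0.73 in the small subunit. In 38 members every OSK library lay above every control, against 6.55% of all genes.

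Libraries of these groups with the same replicate number in the labels had correlated deviations for numbers 2 and 3. Yet Old control replicates 2 and 3 had Y-linked counts of 5493 and 5013, and Old OSK replicates 2 and 3 had 15 and 4. A shared number therefore did not mean a shared animal there. With the number as a block in replicates 1 to 3 of each group, 2 members were called, Rpl39 (log2 fold change 1.20, edgeR adjusted p = 0.04705) and Rps28 (1.05, edgeR adjusted p = 0.04988), beside 2.5% of all tested genes called higher in that fit, so the members' count there is close to the background. The same 6 libraries without the block gave 22, beside 5.89% of all genes. Without Old control replicate 2, 51 members were called higher and 2 lower, Rps23rg1 by −1.29 and Rpl7l1 by −0.34 on the log2 scale (edgeR adjusted p = 0.01936 and 0.04806), and 6.25% of all genes were called higher and 11.6% lower. Without Old OSK replicate 4, 53 members and 5.65% of all genes were called higher, and without any other single library of these groups 0 were called. The median log2 fold change stayed between 0.52 and 0.82 when 1 library was left out, and was 0.85 in the 6 libraries with and without the block. With the letter M as a covariate, 0 were called, beside 0.257% of all genes called higher. In that fit 69 members were higher at an unadjusted p under 0.05, where the share of all genes was not taken, and the median was 0.63. Only 1 control library lacks the letter, so the groups could not be tested among libraries without it.

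Rplp2, Rpl39 and Rps28 had the lowest p-values in this comparison, and Rplp0 the highest fold change. Rplp2, a stalk protein, had 86.3, 88.6 and 90.2 CPM in the controls and 231.4, 135.6, 154.1 and 117.9 CPM with OSK, without overlap. Its log2 fold change of 0.85 ± 0.208 had the lowest p of all members (edgeR adjusted p = 0.06101). Rplp0 had 371.5, 581.5 and 491 CPM in the controls and 1548, 1245, 1156 and 545.8 CPM with OSK. OSK replicate 4 fell below Old control replicate 2, and the log2 fold change of 1.22 ± 0.365 was the highest of all members (edgeR adjusted p = 0.08324).

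Rpl39 had 59.5, 70.5 and 59.6 CPM in the controls and 178.5, 132, 128.9 and 84.1 CPM with OSK, a log2 fold change of 1.05 ± 0.273 (edgeR adjusted p = 0.06891). Rps28 had 57, 51.6 and 47.6 CPM in the controls and 157.2, 88.2, 89.8 and 82 CPM with OSK, a log2 fold change of 1.00 ± 0.261 (edgeR adjusted p = 0.06902). Neither gene overlapped between the groups, and OSK replicate 1 was the highest in both. Rpsa had 283.3, 501.3 and 324 CPM in the controls and 981.1, 824.5, 691.1 and 472.3 CPM with OSK, so OSK replicate 4 again lay below Old control replicate 2. Its log2 fold change was 1.01, that of Rps4x 0.95, of Rpl10 0.745 and of Rps6 0.64, with edgeR adjusted p-values of 0.08858, 0.09052, 0.0841 and 0.08029.

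**Figure D3:**
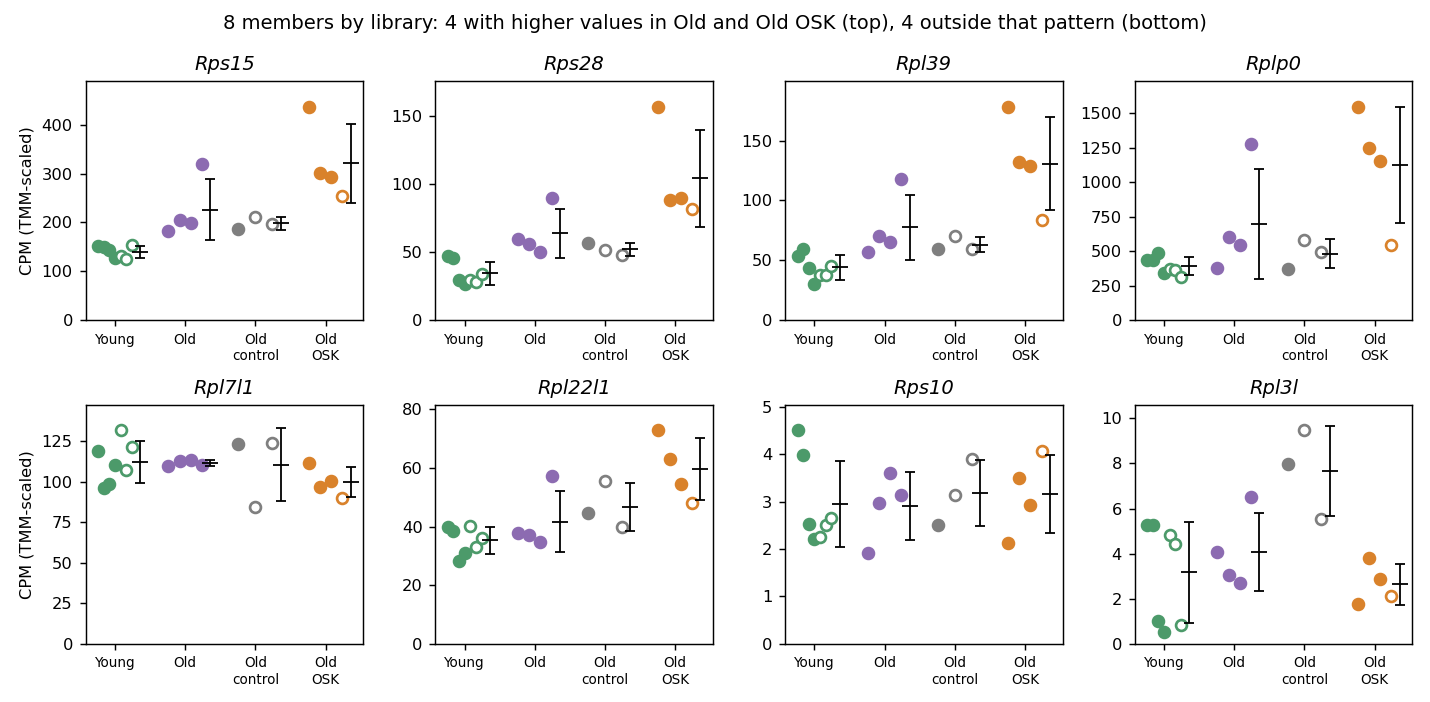
CPM after TMM scaling of 8 members in each library, by group, with mean and SD; open symbols are libraries with the letter M in their name, and each panel has its own axis from 0. Rps15, Rps28, Rpl39 and Rplp0 (top) are higher in most Old OSK libraries than in the controls, with OSK replicate 1 the highest, whereas Rpl7l1 stays between 84.5 and 131.7 CPM in all 18 libraries.

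Between the vector control and untreated old RPE no ribosomal protein gene passed the test. In Old control against Old, 0 of the 83 members were called in either direction and 0 reached an unadjusted p under 0.05, where 0% of all tested genes were called and 2.4% were higher and 1.34% lower at the unadjusted level. DESeq2 called 0 too. The median log2 fold change was −0.17 and 6 members were positive. Among the lowest p-values in the downward direction were those of Rpl28 (−0.365 ± 0.224) and Rplp0 (−0.54 ± 0.357), and the lowest in the upward direction belonged to Rpl3l (0.90 ± 0.645), Rpl22l1 (0.16 ± 0.183) and Rpl13a (0.09 ± 0.154), with edgeR adjusted p-values of 0.8996 to 0.9687. Rpl28 had 205.5, 279, 263.8 and 466.2 CPM in Old and 229.8, 222.8 and 254.8 CPM in the controls, so only Old replicate 4 lay far from the rest. Without Old replicate 4 the median turned to 0.10.

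The term for the letter M, fitted beside the 4 groups, gave 0 called members by edgeR, against 0.0502% of all tested genes in either direction. 79 members were lower in the lettered libraries, with a median of −0.16, and Rpl24 was the only member under an unadjusted p of 0.05, with a log2 fold change of −0.51 (edgeR adjusted p = 0.908), where 5.06% of all genes were under it. The 4 members on the X chromosome, Rpl10, Rpl36a, Rpl39 and Rps4x, had terms of −0.20, −0.11, −0.275 and −0.25, within the range of the rest. DESeq2 was not run for this term.

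The age and the OSK comparison share no library, but both were taken from 1 fit with a spread per gene shared by the 4 groups. All 76 members that were higher with age at an unadjusted p under 0.05 were also the 76 that were higher with OSK, where 7.13% of all tested genes were higher in both. Their log2 fold changes ran from 0.29 to 0.98 with age and from 0.40 to 1.22 with OSK. Without Old replicate 4, 40 members were higher with age at that level. Without Old OSK replicate 1, 56 were higher with OSK, and the share of all genes was not taken in these fits. The members moved together by library, so the 76 are not separate agreements. Across the 83 genes the log2 fold changes of both comparisons gave r = 0.74 (Pearson) and rho = 0.85 (Spearman), as a description, since the genes of a library share its depth and composition. Within the 76, r was 0.81. Of the 20 members without overlap with age, 17 (85%) were also without overlap with OSK, which is 44.7% of the 38 on that side, and 0.615% of all tested genes were without overlap in both.

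**Figure D4:**
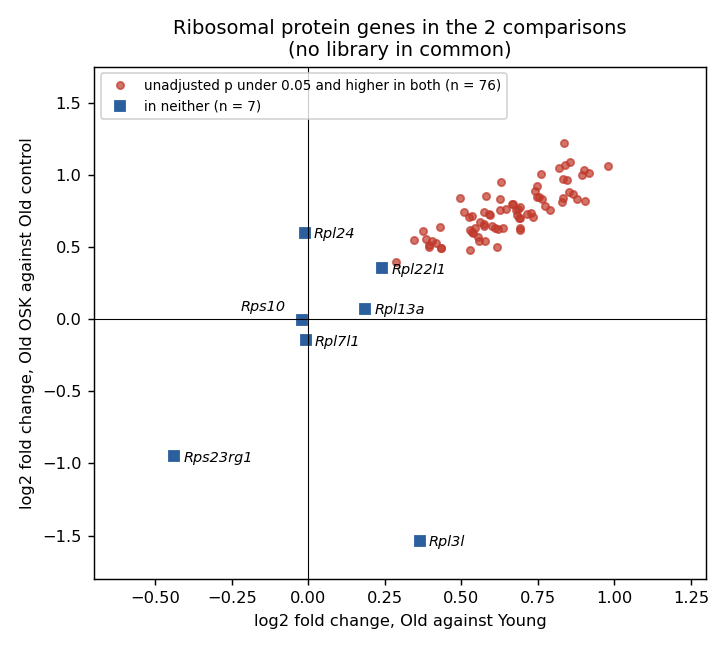
Log2 fold change with age (x axis) against log2 fold change with OSK (y axis) for the 83 members; circles are the 76 higher at an unadjusted p under 0.05 in both and squares are the 7 others. The circles lie between 0.29 and 0.98 on the x axis and between 0.40 and 1.22 on the y axis, and Rpl3l and Rps23rg1 lie lowest.

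The 7 members outside this group were named after their values were seen. They are Rpl13a, Rpl22l1, Rpl24, Rpl3l, Rpl7l1, Rps10 and Rps23rg1, and several have a low count or a gene model shared with a neighbour. In the annotation (GENCODE vM21, GRCm38), 71.5% of the exon bases of Rpl24 (chr16:55966275-55971435) are also exons of Gm28037 on the same strand. For Rpl13a (chr7:45125558-45128761) this holds for 54.9% of the exon bases, with Gm45713 among the overlapping genes, and for Rps10 (chr17:27630418-27636669) for 38.8%, with the readthrough gene RPS10-NUDT3. Reads in such stretches fit both genes, so the counts of these members are uncertain. Per kilobase of transcript, their mean levels were 1.48 CPM for Rpl24, 4.69 for Rps10 and 12.5 for Rpl13a, where the median member had 232.5 CPM per kilobase (interquartile range 152.7 to 328.6, n = 82 with a gene model) and Rplp1, a stalk protein, had the highest level, 926.9.

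Rps10 had 2.22 to 4.50 CPM in Young, 1.92, 2.98, 3.59 and 3.14 CPM in Old, 2.50, 3.15 and 3.89 CPM in the controls and 2.13, 3.49, 2.93 and 4.06 CPM with OSK. All 4 groups overlapped, and its log2 fold changes were −0.02 with age and −0.01 with OSK. Rpl24 lay at 0.60 to 1.65 CPM in all 18 libraries, with log2 fold changes of −0.01 and 0.60, neither called (edgeR adjusted p = 0.9853 and 0.2674). Rpl13a, known for silencing inflammatory mRNAs when released from the ribosome, had a log2 fold change of 0.07 with OSK (edgeR adjusted p = 0.822). Rps23rg1, a retrogene of Rps23 with no model in this annotation, can share reads with its parent. It had 5.36 to 9.55 CPM in Young, 7.33, 4.02, 4.16 and 4.21 CPM in Old, 8.57, 2.50 and 3.41 CPM in the controls and 2.95, 2.04, 2.63 and 2.36 CPM with OSK. Its log2 fold changes of −0.44 ± 0.287 with age and −0.95 ± 0.347 with OSK were not called (edgeR adjusted p = 0.3287 and 0.1131). The value with OSK rested on the controls: it was −0.25 without Old control replicate 1 and −1.29 without Old control replicate 2.

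Paralogues did not all follow their parent gene. Rpl3, which reaches into the peptidyl transferase centre, and Rpl3l, its striated muscle counterpart, share 77.2% of aligned coding bases. Rpl3 had log2 fold changes of 0.43 with age and 0.64 with OSK (edgeR adjusted p = 0.05264 and 0.07019). Rpl3l had 7.97, 9.47 and 5.52 CPM in the controls and 1.74, 3.82, 2.88 and 2.11 CPM with OSK, without overlap, the only member with every OSK library below every control (5.84% of all genes). Its log2 fold change of −1.54 ± 0.652 was not called (edgeR adjusted p = 0.1512), and in Young it ranged from 0.515 to 5.28 CPM.

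Rpl7 and Rpl7l1 share 73.2% of coding bases. Rpl7 had log2 fold changes of 0.53 with age and 0.71 with OSK (edgeR adjusted p = 0.1071 and 0.115), and Rpl7l1, which takes part in ribosome assembly, had −0.01 and −0.15 (edgeR adjusted p = 0.9703 and 0.5197). Rpl22, an RNA-binding protein of the large subunit, and Rpl22l1 share 75.5%. Rpl22 had 0.43 and 0.49 and Rpl22l1 had 0.24 and 0.35 on the log2 scale, none of them called. The differences between the genes of a pair were not tested.

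Rps27 has a relative in Rps27l, a target of p53, and an intronless copy, Rps27rt. The first 60 coding bases show how alike they are, with capitals where a base differs from Rps27 (GENCODE vM21 transcripts, GRCm38).
Rps27, chr3:90212522-90213651, minus strand: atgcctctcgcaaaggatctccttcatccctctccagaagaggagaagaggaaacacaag
Rps27rt, chr9:114982366-114982739, minus strand: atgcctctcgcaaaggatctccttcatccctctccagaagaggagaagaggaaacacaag
Rps27l, chr9:66946086-66949516, plus strand: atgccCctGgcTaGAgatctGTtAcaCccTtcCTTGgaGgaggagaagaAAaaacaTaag

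Rps27rt is identical to Rps27 over all 252 coding bases, and Rps27l differs at 18 of the 60 bases shown and shares 81.1% over the aligned coding sequence. Rps27rt averaged 2.52 CPM and Rps27 101.8 CPM over the 18 libraries. Rps27rt had log2 fold changes of 0.625 with age and 0.835 with OSK, beside 0.69 and 0.63 for Rps27, and reads of either cannot be told apart within the coding sequence. Rps27l had 24.9 to 37.9 CPM in Young, 33.6, 37.7, 33.1 and 49.5 CPM in Old, 39.3, 34.8 and 36 CPM in the controls and 71, 47.3, 52.2 and 37.5 CPM with OSK. Its log2 fold changes of 0.395 and 0.50 were not called (edgeR adjusted p = 0.1044 and 0.1238). Shared sequence is common in this family: for the median member 36.8% of the 50-base stretches of its transcripts also occur in annotated transcripts of other genes, many of them pseudogenes, and 27 members exceed 50%. Across 82 members that share had a Pearson r of 0.01 with the log2 fold change with age and 0.20 with that with OSK, as a description.

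The members are short genes, with a median transcript of 803.5 bases. Other tested genes with a transcript under 1000 bases and a mean of at least 20 CPM were taken (n = 380). Their median log2 fold change was 0.09 with age, with 23 called higher and 0 lower. With OSK it was −0.07, with 3 called higher and 0 lower. At the same level the median with age fell with transcript length, to −0.04, −0.10 and −0.14 in successively longer classes. In the longest class (n = 2675) 31 genes were called higher with age and 289 lower. With OSK the longer classes had medians of −0.06, −0.07 and −0.10. The members' medians were 0.625 with age and 0.72 with OSK, and the difference from the other short genes was not tested. The part of transcript length in the members' fold changes was not tested.

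Some ribosomal proteins have symbols that fall outside the rule. Of these, Fau, a ribosomal protein made as a fusion with a ubiquitin-like domain, rose with age by 0.65 on the log2 scale (edgeR adjusted p = 0.02103), from 151.2 ± 17.7 CPM (SD, n = 7) in Young to 237.4 ± 74 CPM (SD, n = 4) in Old. With OSK its log2 fold change was 0.61 (edgeR adjusted p = 0.0907). Rack1, a signalling scaffold on the small subunit, had 0.59 and 0.985 (edgeR adjusted p = 0.08215 and 0.07228).

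The genes whose products build ribosomes were called in shares below that of all genes with age by edgeR and above it by DESeq2. Of 71 ribosome biogenesis factors, 2 (2.82%, beside 5.4% of all genes) were called higher with age and 0 lower by edgeR, with a median log2 fold change of 0.12, and 0 were called with OSK, with a median of 0.10 and 12 at an unadjusted p under 0.05. DESeq2 called 10 (14.1%, beside 8.71% of its genes) higher and 1 lower with age and 4 (5.63%, beside 6.93%) higher with OSK. The 2 called by edgeR were Fbl, the methyltransferase of ribosomal RNA (0.485, edgeR adjusted p = 0.03559), and Nop58, a core protein of the same particles (0.52, edgeR adjusted p = 0.03746). The difference between this list and the ribosomal protein genes was not tested. Of 36 translation initiation factors 0 were called with age or with OSK by edgeR (7 and 13 at an unadjusted p under 0.05), with medians of 0.05 and 0.145. DESeq2 called 2 lower with age and 5 higher with OSK, beside 5.3% and 6.93% of its genes. Of 14 nascent chain and signal recognition factors 0 were called by edgeR or DESeq2 (4 and 4 at an unadjusted p under 0.05 by edgeR), with medians of 0.04 in both. In this and the next 2 paragraphs, counts of a list at the unadjusted level join both directions. Of all genes, 15.6% were higher and 13.4% lower at that level with age, and 13.3% and 13% with OSK.

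Of 13 elongation factors, Eef1d, part of the exchange factor that reloads the elongation factor with GTP, rose with age by 0.32 (edgeR adjusted p = 0.0422), and the list had a median of 0.24. With OSK, Eef2k, the kinase that inhibits elongation factor 2, rose by 1.22 (edgeR adjusted p = 0.02187), from 17.6 ± 3.18 CPM (SD, n = 3) in the controls to 41 ± 9.97 CPM (SD, n = 4), and the median of the list was 0.25. That call was lost without Old control replicate 1 or Old OSK replicates 1, 2 or 3 (edgeR adjusted p up to 0.1734, log2 fold change at least 1.08). Of 26 genes of mTORC1 and of regulators of ribosomal protein mRNAs, 2 were called higher and 1 lower with age, with a median of −0.09. They were Myc, a transcription factor of growth genes (2.00, edgeR adjusted p = 0.03335), Eif4ebp1, which holds back cap-dependent initiation (1.14, edgeR adjusted p = 0.03977), and Larp4, a poly(A) RNA-binding protein (−0.29, edgeR adjusted p = 0.03135). Myc was low in all groups, at 1.25 ± 1.08 CPM (SD, n = 7) in Young and 5.07 ± 3.1 CPM (SD, n = 4) in Old. With OSK 0 of the 26 were called by edgeR (8 at an unadjusted p under 0.05) and 1 by DESeq2, with a median of −0.105. With the letter M as a covariate, all of these genes called with age except Larp4, and Eef2k with OSK, lost their call (edgeR adjusted p = 0.05966 to 0.1181). Without Old replicate 4, 0 genes of these 6 lists were called with age, as with the ribosomal protein genes. In the 11 fits that left out 1 Old or Young library, Myc and Eif4ebp1 kept their call with age in 2. Eef1d and Nop58 kept it in 3, Fbl in 4, Larp4 in 6 and Fau in 10, and 0 of these fits reversed a sign.

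Marker genes of the RPE and of other cell types were compared in the same fits. With age, edgeR called 5.4% of all tested genes higher and 4.16% lower. With OSK it called 0.408% and 0.32%, and DESeq2 called 6.93% and 4.28% of its tested genes. Of the 21 RPE markers 0 were called higher and 4 lower with age by edgeR, with a median log2 fold change of −0.49. With OSK 0 were called by edgeR (12 at an unadjusted p under 0.05) and 6 lower by DESeq2, with a median of −0.52. Of the 12 immune cell markers 10 were called higher with age, with a median of 2.18, and with OSK 0 by edgeR (3 at an unadjusted p under 0.05) and 1 in each direction by DESeq2, with a median of 0.43. Of the 14 rod markers 0 were called in either comparison by edgeR (4 and 0 at an unadjusted p under 0.05) or DESeq2, with medians of 1.40 with age and −0.17 with OSK. With age, the remaining lists had 1 of 9 cone markers and 1 of 10 endothelial markers called higher, 2 of 9 stromal and 1 of 7 melanocyte markers called lower, and 0 of 9 Müller glia and 0 of 6 red blood cell markers called by edgeR (0 and 0 at an unadjusted p under 0.05). With OSK, edgeR called 0 genes of these remaining lists. Their medians with OSK were −0.26 (cones), −0.265 (endothelium), −0.28 (Müller glia), 0.13 (stroma), 0.53 (melanocytes) and 0.64 (red blood cells). In that order, 2, 0, 2, 1, 3 and 1 of their genes were at an unadjusted p under 0.05 by edgeR. The part of all these markers in the levels of the ribosomal protein genes was not tested.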

How the data were processed

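Bulk RNA sequencing was done on 18 mouse RPE libraries. Per the labels' protocols, RNA was extracted with TRIzol and amplified with a SMART-Seq v4 kit, and Nextera XT libraries were made from it. The authors deposited raw counts per gene in 1 table. Per the submitters' processing notes, STAR 2.7.1a and featureCounts 1.6.2 were used, and GRCm38 and a human build are listed. Strand setting, the handling of reads with several matches and the annotation are not given in the sources used here, so counts of near-identical copies and overlapping genes are uncertain.

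Every column was matched to a sample by its name, and 0 columns were left over. Genes were filtered with edgeR's filterByExpr, scaled by TMM and fitted with the quasi-likelihood test of edgeR 4.0.16 (R 4.3.3) on all 18 libraries with 4 group means, and p-values were adjusted by Benjamini-Hochberg over 15944 genes. A gene is called, or said to have risen or fallen, at an adjusted p under 0.05. SE is the log2 fold change divided by the root of the F statistic. CPM values use TMM-scaled library sizes. The procedure was tested on simulated data. DESeq2 1.42.0, other scalings, no filter, a replicate block, the letter M and leaving out libraries were alternatives. Leaving out Old replicate 4 and Old control replicate 2 together was added after seeing the data.

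The members and gene lists were chosen with earlier results of these data known. In each comparison and direction, up to 8 called members were named in order of p or, where fewer than 3 were called, the 3 of lowest p. Also named were Rplp0, Rpsa, Rps6, Rps4x, Rpl10, Rpl39, paralogue pairs, the members of highest and lowest level, and the 3 called genes of each other list with the lowest p. In Old control against Old only members of lowest p in each direction are given. Some results that these rules would name are not reported here. Other names were chosen after their values were seen.

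The pairing check correlated, over all tested genes, the deviations of same-numbered libraries from their group means. It gave r of 0.10, 0.42 and 0.34 for Old OSK and Old control, and at least 1 negative value for the other comparisons. The main fit did not pair libraries, and the number was used as a block only in an alternative fit. Nothing says that libraries came from separate animals, so p-values measure the spread between these libraries, which may be technical. The most alike libraries of a group differed by a chi-square of 19.1 per gene, above sampling noise, so none was counted as the same library sequenced again. The check cannot tell separate libraries of 1 animal from libraries of different animals. Promoter starts are from RefSeq (GRCm38.p6), and gene models and transcripts from GENCODE vM21. No chance test was run on the members as a set.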

Additional observations from a re-analysis of the deposited data

Results flagged for a closer look

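In 84 groups of 4 or 7 libraries, over the named members and the share of counts on all members, the highest or lowest library was compared with its neighbours. Dixon's ratio was used, and 7 stood apart. Chance alone gives about 1 in 20 such groups if they are independent, which members that moved together by library are not. 4 of the 7 were Old replicate 4 as the high library: Rps15 at 319.8 CPM, Rps27 at 148.7, Rplp2 at 137.5 and Rpl22l1 at 57.11 CPM. Old OSK replicate 1 was the high library for Rps28, at 157.2 CPM. Rps23rg1 was high in Young replicate 5, at 9.551 CPM, and in Old replicate 1, at 7.328 CPM, while the other Old libraries had 4.02 to 4.21 CPM. No cause was tested.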

How the results depend on the processing

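The direction of the members' median held under every alternative run for Old against Young (0.35 to 0.73) and Old OSK against Old control (0.52 to 0.85). The number of members called did not. With age it was 43, and 1 with the letter M as a covariate, 0 with a replicate block in the 8 libraries whose numbers occur in both groups and 0 in those libraries with no block. In the last 2 fits 0% and 0.694% of all genes were called higher. Leaving out 1 library gave 0 to 70. With OSK it was 0, and 1 with library totals (Rplp2, edgeR adjusted p = 0.0466, beside 0.734% of all genes), 55 by DESeq2, 2 with the replicate block, 22 in the same libraries with no block and 0 to 53 when 1 library was left out, with 0 to 2 called lower. For Old control against Old the median of −0.17 turned to 0.081 with the replicate block, 0.09 in the same libraries with no block, and ran from −0.29 to 0.099 when 1 library was left out. It was −0.01 without both Old replicate 4 and Old control replicate 2. The cause was not tested.

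Among single genes, 3 members near 0 with age changed sign. With library totals, which moved the median of all genes with age to 0.09, Rps10 had 0.065, Rpl7l1 0.094 and Rpl24 0.075. With the 2 groups alone Rpl7l1 had 0.014 and Rpl24 0.009, and Rpl7l1 had 0.078 with the replicate block and 0.073 in those libraries with no block. Leaving out 1 library gave −0.14 to 0.132 for Rps10, −0.042 to 0.035 for Rpl7l1 and −0.103 to 0.097 for Rpl24, and −0.043 to 0.171 for Rpl13a in Old control against Old. The replicate block changed no other call with OSK. Numbers of Old and Young libraries did not pair (r from −0.19 to 0.14). Precision is limited by 3 to 7 libraries a group, and for Rpl24 by a mean of 25 counts.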
